A study of Macaca mulatta with 18 samples.

Results

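STAT3, its inhibitor SOCS3, the transcription factors CEBPD and CEBPB, and the acute phase and innate defence genes HP, HPR, PLA2G2A, LCN2, S100A8 and S100A9 were followed in thigh muscle of rhesus monkeys (Macaca mulatta) of 3 ages. These 10 genes, of 20046 symbols annotated on the array, were selected on the same arrays for higher levels in old or middle-aged than in young muscle. In the values below this did not hold for CEBPB and was not measurable for S100A8. Because of this selection, the differences of all 10 genes between ages are given as a description and carry no test. Every probe annotated to 1 of these symbols was used, which gave 14 of 47323 probes. STAT3 had 3 probes, SOCS3 and HPR had 2 each, and the other 7 genes had 1 each. All animals were males kept on standard monkey chow, and biopsies of the vastus lateralis were flash frozen. The young group was 6.00 ± 0.00 years old, the middle-aged group 16.48 ± 0.31 years and the old group 26.83 ± 0.22 years (mean ± SEM, n = 6 animals in each age). RNA of each animal was read on 1 Sentrix Human HT-12 BeadChip array, whose probes are designed on human transcripts, so a monkey transcript can be read weakly where its sequence differs from the human one.

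As background, cytokines of the interleukin-6 family bind receptors that share the subunit gp130, and the Janus kinases attached to these receptors then phosphorylate STAT3. Phosphorylated STAT3 enters the nucleus and switches on its targets, among them SOCS3, which blocks the receptor complex, and the C/EBP factors CEBPB and CEBPD, which drive acute phase genes in liver. In skeletal muscle this pathway is known for its roles in satellite cells and in wasting during inflammation. Phosphorylation is not seen by an RNA array, so the values below describe transcripts only.

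Array medians of the intensity lay at 71 to 97, and 24.5% to 30.5% of probes were detected (detection p under 0.05). The lowest intensity of a detected probe was 87 to 121, so intensities near 100 lay at the limit of what the arrays could read. Intensities are given as deposited, whereas differences between ages are on a log2 level, the Z score of the log intensity within an array times 1.19. A gene was tested when 6 or more of the 18 arrays detected a probe of it, which held for 8589 genes and for 8 of the 10 genes described here, S100A8 and S100A9 being the exceptions. Of the skeletal muscle markers, 11 of 11 with a probe were detected on all arrays. Of the hepatocyte markers 8 of 12, and of the neutrophil markers 8 of 16, were detected on no array. The marker level of a cell type is the mean, over its tested genes, of the log2 level minus that gene's mean over the 18 arrays. It is therefore relative and cannot be set against the detection limit. In whole muscle RNA, a change in the number of cells of a type and a change in RNA per cell cannot be told apart.

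In old muscle, STAT3, SOCS3, CEBPD, HP, HPR and PLA2G2A stood above young muscle, and CEBPB and LCN2 did not. The log2 difference of the 8 tested genes between old and young had a median of 0.52 beside -0.01 over all genes tested, of which 4161 of 8589 were above 0. Against young muscle, the middle-aged difference was above 0 for 8 of 8 genes, beside 3718 of 8589 (median 0.34 beside -0.03 over all genes), with CEBPB and CEBPD close to 0. Between middle-aged and old muscle 4 of 8 were higher in old, beside 4698 of 8589 (median 0.05 beside 0.02). In the limma fit over all genes, called genes were 0.0931% of those tested between old and young, 0.0233% between middle-aged and young and 0.652% between old and middle-aged, and 0 of the 8 genes were among them after Benjamini-Hochberg adjustment. All 6 animals of 1 age stood above all 6 of the other for 0, 1 and 0 of the 8 genes (0.349%, 0.221% and 0.687% of all genes tested), and below them for 0, 0 and 1 (0.512%, 0.594% and 1.06%), in the same order of comparisons. Since higher levels chose these genes, nothing is read from these counts.

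**Figure D1:**
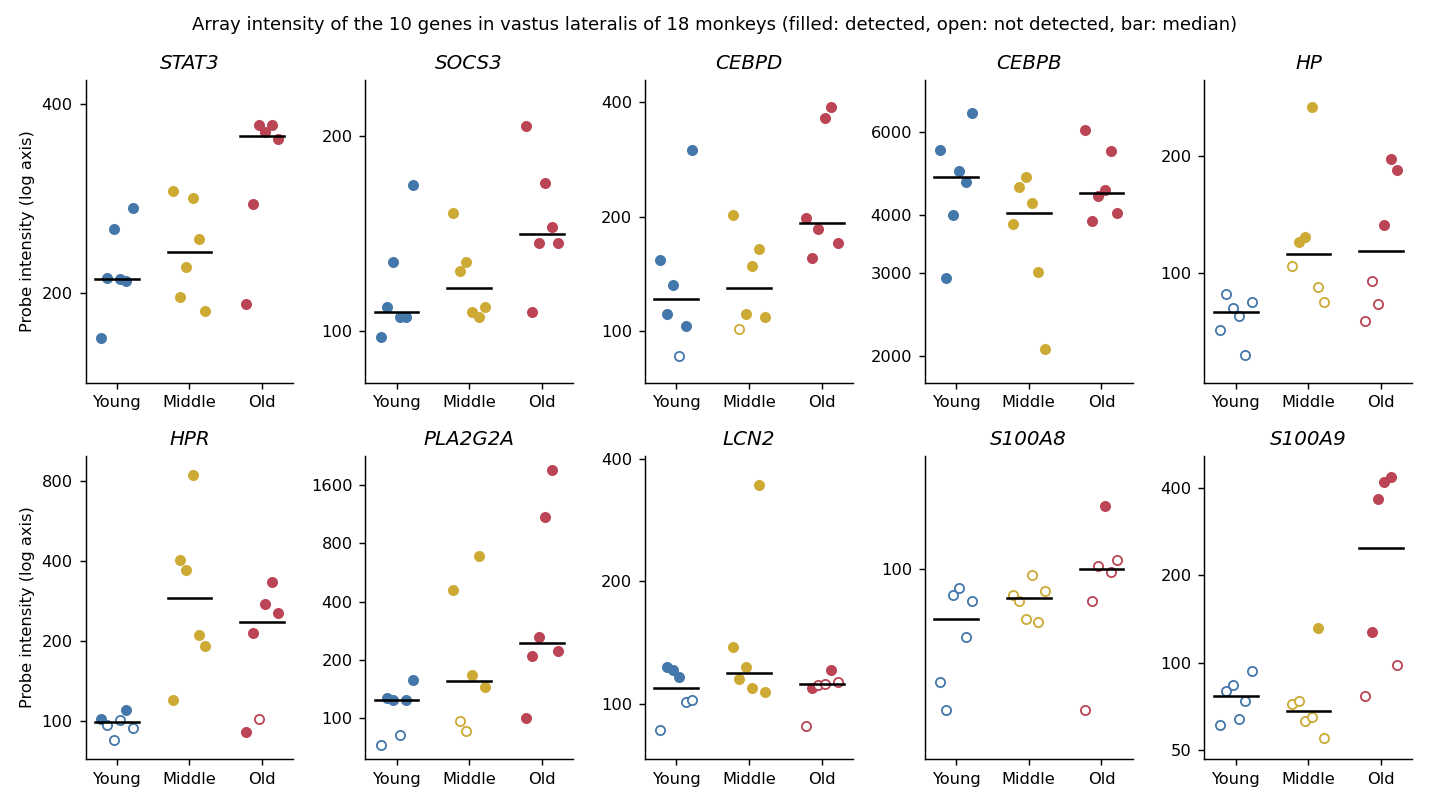
Probe intensity (log axis) of the 10 genes in each of 6 young, 6 middle-aged and 6 old monkeys, 1 point per animal, filled where the probe was detected and open where it was not, with a bar at the median of the age. STAT3 stood at 352 to 371 in 4 of 6 old animals and at 169 to 273 in young animals, PLA2G2A reached 1921 in an old animal, and HPR was highest in middle-aged animals.

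**Figure D2:**
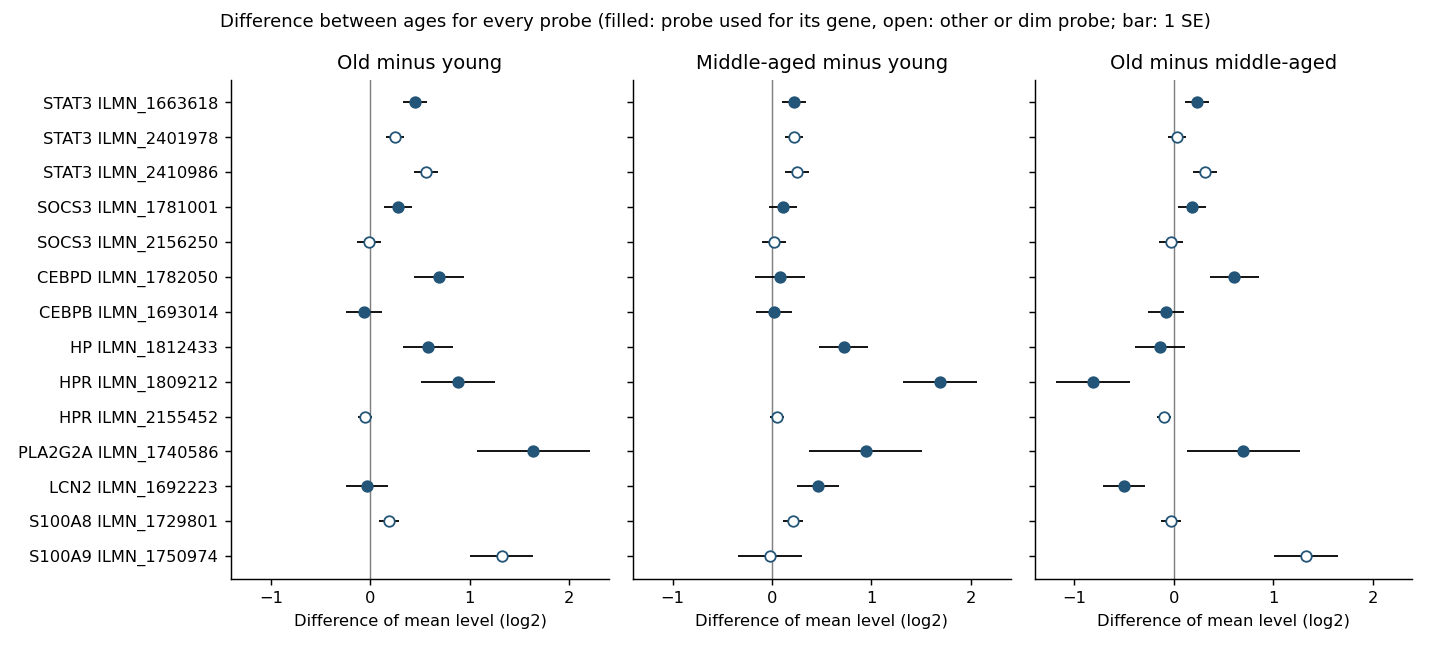
Difference of the mean level between 2 ages (log2, horizontal axis) for each of the 14 probes, with bars of 1 SE from the limma fit over n = 6 animals per age. Filled points are the probes that stand for their genes, and open points are second probes or probes detected on under 6 arrays. HPR ILMN_1809212 had its larger difference in middle-aged muscle (1.69) and S100A9 in old muscle (1.32).

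STAT3, the transcription factor itself, was read by 2 probes on all 18 arrays. With ILMN_1663618 the young animals had intensities of 169 to 273 (median 210.5), the middle-aged of 187 to 291 (median 232.0) and the old of 192 to 371 (median 356.5). The intensity was above the highest young value in 5 of 6 old and in 2 of 6 middle-aged animals, and old replicate 1, at 192, stood among the young. The old level was 1.37-fold the young level, a log2 difference of 0.45 ± 0.12 (SE, n = 6 per age), and the middle-aged level lay between, 0.22 ± 0.12 above the young one. Without any 1 animal the difference between old and young was 0.40 to 0.54.

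The second STAT3 probe, ILMN_2410986, gave the same order of ages. Its intensity was 108 to 225 in young (median 151.5), 138 to 223 in middle-aged (median 175.0) and 178 to 289 in old animals (median 240.0). On the log2 level all 6 old animals stood above all 6 young animals, with the lowest old value at 0.91 and the highest young value at 0.87. The difference between old and young was 0.56 ± 0.12 (SE), or 1.48-fold. The deviations of the animals from their age means correlated between these 2 probes (r = 0.68 over 18 animals, given as a description, as both read the same gene on the same arrays). The third STAT3 probe, ILMN_2401978, was detected on 0 arrays and ran from 63 to 106. The 2 detected probes therefore carry the result for STAT3.

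**Figure D3:**
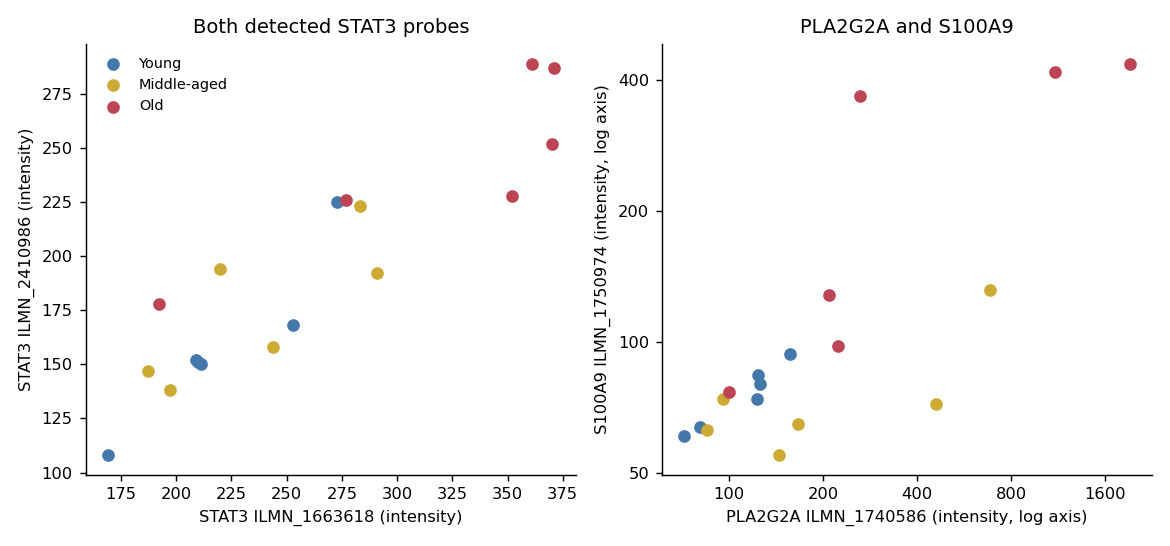
Left, intensity of both detected STAT3 probes in each of the 18 monkeys. Right, intensity of PLA2G2A and S100A9 on log axes, 1 point per animal, coloured by age. Old replicates 3, 4, 5 and 6 held the 4 highest values of ILMN_1663618 (352 to 371), and S100A9 was at 367 to 436 in old replicates 3, 4 and 5.

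SOCS3, which is induced by STAT3 and shuts its receptors off, was read on all 18 arrays by ILMN_1781001. The intensity was 98 to 168 in young (median 107.0), 105 to 152 in middle-aged (median 116.5) and 107 to 207 in old muscle (median 141.0). The ages overlapped, and on intensity 2 of 6 old animals exceeded the highest young animal, replicate 6. For old replicate 4 this was 169 against 168, and on the log2 level only old replicate 1 stood above young replicate 6. The old level was 0.28 ± 0.14 above the young level on the log2 scale, or 1.22-fold. This rested in part on old replicate 1, the animal with the highest SOCS3 (207) and the lowest old STAT3 (192), without which the difference was 0.14. The other SOCS3 probe, ILMN_2156250, was detected on 1 array and differed by -0.01 between old and young.

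CEBPD, a C/EBP factor induced early in inflammation, had an intensity of 86 to 299 in young (median 121.5), 101 to 202 in middle-aged (median 129.5) and 156 to 389 in old muscle (median 192.0). The young value of 299 was that of replicate 6, and the intensities of the other 5 young animals, 86 to 154, stood below those of all 6 old animals. On the log2 level young replicate 1 (0.75) stood above old replicates 2 (0.55) and 6 (0.63). Old replicates 4 and 5 were highest, at 363 and 389. The difference between old and young was 0.69 ± 0.25 (log2, SE), or 1.61-fold, and 0.87 without young replicate 6. Middle-aged muscle differed by 0.08 ± 0.25 from young, and old exceeded middle-aged muscle by 0.61 ± 0.25. Young replicate 6 also held the highest young values of both detected STAT3 probes (273 and 225) and of SOCS3 (168). Its marker levels (log2, relative to the mean over arrays) were the highest of the young animals for fibroblasts and matrix (1.87), macrophages (1.09) and adipocytes (0.76). The part of these cells in its CEBPD, STAT3 and SOCS3 values was not tested.

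CEBPB, the other C/EBP factor, did not stand higher with age. Its probe had the highest intensities of the 10 genes, at 2934 to 6574 in young (median 4818.0), 2061 to 4821 in middle-aged (median 4021.5) and 3868 to 6051 in old animals (median 4455.5). Each pair of ages overlapped. The difference was -0.06 ± 0.18 (log2, SE) between old and young and 0.02 ± 0.18 between middle-aged and young. The second of these values depended on the scaling, because with arrays centred on their median it was -0.35, where the median of all genes was -0.14.

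HP encodes haptoglobin, an acute phase protein that binds free hemoglobin. Its intensity was 61 to 88 in young (median 79.0), 84 to 268 in middle-aged (median 112.0) and 75 to 197 in old muscle (median 114.0). The probe was detected in 0 of 6 young, 3 of 6 middle-aged and 3 of 6 old animals, with the high values in middle-aged replicate 4 (268) and in old replicates 5 (197) and 6 (185). HP was the 1 tested gene of the 8 whose middle-aged log2 levels all stood above the young ones, but 3 of these middle-aged values were not detected, and on intensity the lowest (84) lay under the highest young value (88). As young muscle was not above background, only a bound can be given. With each young array set to at least its lowest detected signal, the middle-aged level was at least 1.24-fold and the old level at least 1.13-fold the young level. These bounds were 1.05 without middle-aged replicate 4 and 1.03 without old replicate 6. The measured differences were 0.72 ± 0.25 and 0.58 ± 0.25 (log2, SE). Without middle-aged replicate 4 the middle-aged difference was 0.48.

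HPR, the haptoglobin-related protein, is a near copy of HP that arose in primates and is carried on high-density lipoprotein particles. Its probe ILMN_1809212 was at 85 to 110 in young (median 99.0), 120 to 838 in middle-aged (median 289.5) and 91 to 334 in old animals (median 235.0). Every middle-aged intensity was above every young one, whereas on the log2 level the lowest middle-aged animal (0.10, replicate 1) fell just below the highest young one (0.16). The probe was detected in 2 of 6 young, 6 of 6 middle-aged and 5 of 6 old animals, so the fold against young muscle is again a bound. It was at least 2.99-fold in middle-aged muscle (at least 2.41-fold without middle-aged replicate 4) and at least 1.70-fold in old muscle. The measured difference from young was 1.69 ± 0.37 (log2, SE) in middle-aged muscle, or 1.38 without replicate 4, and 0.88 ± 0.37 in old muscle. Old and middle-aged muscle differed by -0.81 ± 0.37, or by -0.50 without middle-aged replicate 4. The other HPR probe was detected on 0 arrays. The rhesus annotation used for gene names (RefSeq, assembly T2T-MMU8v2.0) holds an entry for HP and none under the symbol HPR, so which monkey transcript the probe read is uncertain, and HP and HPR cannot be taken as independent readings.

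Free hemoglobin is what haptoglobin binds, and transcripts of red blood cells also differed between the ages. In the limma test HBA1 was 4.16, HBA2 3.68 and HBB 3.58 higher on the log2 scale in old than in young muscle (adjusted p = 0.0467 each), with 3 of 5 tested erythrocyte markers passing. Each of these calls was kept in 9 of 29 repeats of the fit and lost in the rest, with adjusted p up to 0.166, while the differences stayed between 2.91 and 4.86. The erythrocyte marker level over these 5 genes, relative to their means over all arrays, lay at -1.28 to -0.63 in the young. It was -0.89 to 0.69 in the middle-aged and -0.70 to 3.16 in the old group. Old replicate 3 had the highest erythrocyte level (3.16) and an HP intensity of 83, while old replicate 5 had the lowest of the old animals (-0.70) and an HP intensity of 197. Within ages the erythrocyte level correlated with HP at r = -0.50 and with HPR at r = -0.43 over 18 animals, as a description. The part of blood in the HP and HPR values was not tested.

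PLA2G2A, a secreted phospholipase A2 of the acute phase, had the largest difference of the tested genes described here between old and young muscle. The probe was detected in 4 of 6 young, 4 of 6 middle-aged and 6 of 6 old animals, and its young values lay near the detection limit. Its intensity was 72 to 157 in young (median 123.5), 85 to 685 in middle-aged (median 155.5) and 100 to 1921 in old animals (median 242.5). In 5 of 6 old animals it was above the highest young value, and old replicates 4 (1102) and 5 (1921) stood far above the remaining old animals, at 100 to 262. Middle-aged replicates 1 (461) and 5 (685) were also high, against 85 to 166 in the remaining middle-aged animals. The old level was 3.11-fold the young level (1.64 ± 0.57, log2, SE), and the log2 difference was 1.22 without old replicate 5. The middle-aged level was 0.94 ± 0.57 above the young one, and 0.57 without middle-aged replicate 5. Old exceeded middle-aged muscle by 0.70 ± 0.57, or by 0.28 without old replicate 5.

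LCN2, lipocalin 2, which withholds iron from bacteria, was at 86 to 123 in young (median 109.0), 107 to 345 in middle-aged (median 119.0) and 88 to 121 in old animals (median 111.5). Old and young muscle differed by -0.03 ± 0.21 (log2, SE). The middle-aged difference of 0.46 ± 0.21 came largely from replicate 5, the animal at 345, and was 0.19 without it. The other 5 middle-aged animals lay at 107 to 138. The probe was detected in 3 of 6 young, 6 of 6 middle-aged and 2 of 6 old animals. On the log2 level all 6 old animals (-0.10 to 0.06) stood below all 6 middle-aged animals (0.11 to 1.83), but most of these old values were not detected. The measured difference was -0.50 ± 0.21, or -0.23 without replicate 5. With each old array set to at least its lowest detected signal, the middle-aged level was at least 1.38-fold the old level. This bound was 1.14 without replicate 5.

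The same animal carried transcripts of epithelial cells. E-cadherin (CDH1) was at 492 in middle-aged replicate 5 and at 52 to 69 in the other 17 animals. EPCAM, an adhesion molecule of epithelia, was at 459 against 61 to 85, CLDN7, a tight junction claudin, at 205 against 49 to 93, and keratin 19 (KRT19) at 173 against 67 to 99. Of 24 epithelial markers, a list written after these values had been seen, 23 had a probe. Of these 12 were highest in middle-aged replicate 5, against 0 to 3 in each other animal, and 13 were detected there. KRT8 (77), KRT18 (61) and CDH3 (58) were among those not detected in it. The animal also had the highest middle-aged values of PLA2G2A (685) and S100A9 (132). The part of epithelial cells in these values was not tested.

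S100A9 and S100A8 form calprotectin, a calcium-binding complex of neutrophils and monocytes. The S100A9 probe was at 61 to 94 in young (median 77.0), 55 to 132 in middle-aged (median 68.5) and 77 to 436 in old animals (median 247.5). It was detected in 0 young, 1 middle-aged and 4 old animals, old replicates 2 to 5, and old replicates 3, 4 and 5 stood at 367, 418 and 436. Old replicates 1 (77) and 6 (98) were not detected, nor was any young animal, so the order of these values is not read. With young arrays set to at least their lowest detected signal, the old level was at least 1.86-fold the young level, and the measured difference was 1.32 ± 0.32 (log2, SE). Middle-aged muscle differed from young by -0.02 ± 0.32. S100A8 was detected on 1 array (old replicate 4, at 123) and otherwise ran from 63 to 103, so a difference between ages was not measurable with this probe.

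Of the neutrophil markers with a probe, 8 of 16 were detected on no array (MPO, MMP8, MMP9, CXCR1, FPR1, MNDA, CEACAM8 and S100A12). CSF3R, the receptor of granulocyte colony-stimulating factor, was detected in 2 old animals alone. Others were detected more widely, with FCGR3B on 18 arrays, LTF on 17, FCN1 on 13 and CXCR2 on 5. ELANE and PADI4 were detected on 2 arrays each and CAMP on 1. FCGR3B, listed as an Fc receptor of human neutrophils, was 0.56 ± 0.11 (log2, SE) lower in old than in middle-aged muscle (limma, adjusted p = 0.0338). This call was kept in 18 of 29 repeats of the fit (adjusted p from 0.0154 to 0.0916) and lost with arrays centred on their median (adjusted p = 0.0641). Which monkey transcript and which cells gave the signal of this human probe was not tested. The neutrophil marker level rested on 3 tested genes, FCGR3B, LTF and FCN1. It lay at -0.15 to 0.29 in the young, -0.02 to 0.23 in the middle-aged and -0.27 to -0.06 in the old group. The macrophage marker level, over 6 tested genes, overlapped between ages. It lay at -0.68 to 1.09 in the young, -0.77 to 0.96 in the middle-aged and -0.27 to 0.70 in the old group. Of the old animals, replicates 5 (0.70), 3 (0.45) and 4 (0.13) had the highest macrophage levels, and these were the 3 animals with the highest S100A9. The highest macrophage level of all 18 animals was in young replicate 6 (1.09), where S100A9 was not detected (94), and young replicate 3 (0.47) and middle-aged replicate 1 (0.45) had S100A9 at 84 and 72. The part of macrophages in the S100A9 values was not tested.

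To see whether the genes varied together from animal to animal, each level was taken as its deviation from the mean of its age. This removes the differences between age means. High single animals can enter both those means and the deviations, so the choice of the genes may still bear on the pairs. Over 18 animals and the 28 pairs of the 8 tested genes, 4 pairs passed by Pearson's r and 3 by Spearman's rho (two-sided permutation within ages, 100000 resamples, Benjamini-Hochberg over the 28 pairs). Both counts include pairs with HP or LCN2, which are not read as results for the reasons given with them. The first of these was HP with HPR, whose probes may read 1 transcript, and HP was among the tested genes only through the 3 middle-aged and 3 old arrays that detected it. Their r of 0.81 and rho of 0.78 are therefore given as a description, with r = 0.67 without the 2 animals farthest from the HP median. Within each age r was -0.18 in young, where HP was below detection in all animals, 0.86 in middle-aged and 0.85 in old animals.

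CEBPD and PLA2G2A correlated at r = 0.63 (adjusted permutation p = 0.035) and rho = 0.69 (adjusted permutation p = 0.0188). Within ages r was 0.31 in young, 0.89 in middle-aged and 0.80 in old animals. Without old replicates 4 and 5, which were highest in both genes, r was 0.43. The deviations of CEBPB correlated negatively with PLA2G2A (r = -0.64, adjusted permutation p = 0.0412, and rho = -0.59, adjusted permutation p = 0.0869). The other pair was CEBPB with LCN2, at r = -0.46 and rho = -0.61. LCN2 was detected in 3 young, 6 middle-aged and 2 old animals, so it was among the tested genes only through the middle-aged arrays. The r and rho with LCN2 are therefore given as a description. Without young replicate 1 and old replicate 1 both CEBPB pairs were at r = -0.56.

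STAT3 was not among the pairs that passed. It correlated with SOCS3 at r = -0.36 (adjusted permutation p = 0.531, rho = -0.06), with CEBPD at r = 0.26 (adjusted permutation p = 0.602) and with PLA2G2A at r = 0.49 (adjusted permutation p = 0.281). Its negative r with SOCS3 rested on old replicate 1, without which r was 0.26 (adjusted permutation p = 0.618). The pairs that passed depended on single animals, as 0 pairs passed without middle-aged replicate 4 or without middle-aged replicate 5, and 0 with neqc background correction. Over 23 such repeats, CEBPD and PLA2G2A passed in 14 (r from 0.55 to 0.76) and CEBPB and PLA2G2A in 7 (r from -0.72 to -0.27). The pairs given as a description ranged from r = 0.67 to 0.86 (HP and HPR) and from -0.61 to -0.27 (CEBPB and LCN2). With arrays centred on their median both CEBPB pairs were at r = -0.27 (adjusted permutation p = 0.602).

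**Figure D4:**
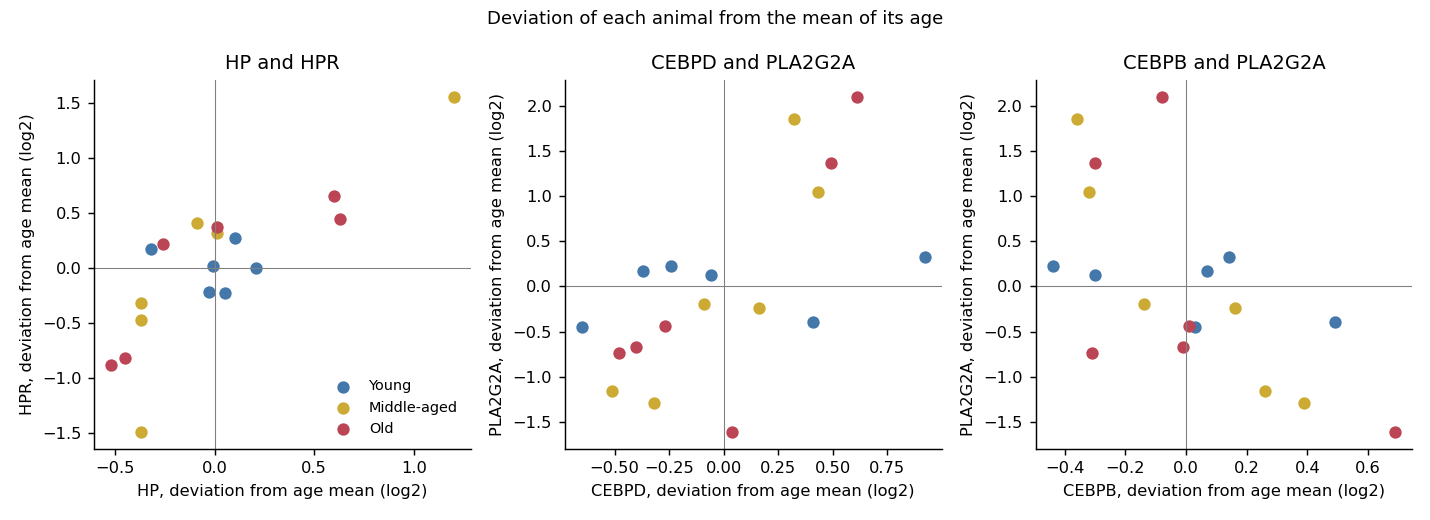
Deviation of each animal from the mean of its age (log2) for HP and HPR, CEBPD and PLA2G2A, and CEBPB and PLA2G2A, 1 point per animal, coloured by age. The pairs correlated at r = 0.81, 0.63 and -0.64 over 18 animals.

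S100A9 had no tested probe and was set beside these pairs as a description. Its deviations correlated with those of PLA2G2A at r = 0.75 and with those of CEBPD at r = 0.43 over 18 animals. Since S100A9 was detected on 5 of the 18 arrays, most of its deviations come from values below detection, and r leans on few animals. The macrophage marker level correlated within ages with CEBPD (r = 0.68), PLA2G2A (r = 0.67) and STAT3 (r = 0.53). This was not particular to macrophages. The fibroblast and matrix level was at r = 0.55 with STAT3, 0.43 with CEBPD and 0.17 with PLA2G2A. The adipocyte level was at 0.44, 0.46 and 0.08 with the same genes. The skeletal muscle level was at r = -0.66 with STAT3 and -0.57 with CEBPD, and the erythrocyte level at -0.59 with PLA2G2A. The arrays and the animals are shared by all of these values. The part of cell composition in the pairs was not tested.

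The genes whose deviations were most like each of the 8 were listed by r over the 18 animals, across 8589 genes and with no test. For SOCS3 the first 2 were JUNB (0.84), an AP-1 factor, and ZFP36 (0.80), which speeds the decay of cytokine mRNAs, followed by NCSTN (0.75). Both JUNB and ZFP36 are themselves on the list of STAT3 targets used below. For STAT3 they were SEPTIN11 (0.84), ADM (0.79), the vasodilator adrenomedullin, and CDC42EP1 (0.77). For CEBPD they were NUP205 (0.90), BTG1 (0.89) and EIF4A1 (0.85). For PLA2G2A they were EPB41L4A-AS1 (0.84), EXOC1 (0.82) and the imprinted RNA H19 (0.81). For CEBPB they were RNF122 (0.84), UCKL1 (0.77) and PLA2G4C (0.73).

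Each haptoglobin gene had the other as its nearest, followed for HP by COA4 and KIRREL3-AS2 (0.76 each) and for HPR by PPP1R14B (0.75) and ATAD1 (0.74). For LCN2 the nearest were ABHD17C (0.95), TMEM79 (0.95) and C1orf116 (0.94). All 3 were highest in middle-aged replicate 5, where C1orf116 was at 742 against 54 to 117 in the other 17 animals.

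The other genes of the pathway were taken from lists of textbook roles. Of 168 listed genes 80 were tested, and in the limma fit 0 passed between old and young, 0 between middle-aged and young, and 1 between old and middle-aged muscle. An unadjusted p under 0.05 was reached by 16 of the 80 (20% beside 11% of all genes), 15 (18.8% beside 11.1%) and 11 (13.8% beside 16.5%), respectively. Their median log2 differences were 0.10, -0.01 and 0.04, beside -0.01, -0.03 and 0.02 over all genes tested. The lists were chosen with earlier results of these data known, so nothing is read from these shares.

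Upstream of STAT3, 3 of 15 ligands were tested and 0 passed. LEP, leptin, was at 454 to 722 in young and 608 to 887 in old muscle, a difference of 0.39 ± 0.12 (log2, SE, adjusted p = 0.196). IL6 itself was not among the tested genes. Of the receptors 7 of 14 were tested and 0 passed. CNTFR, the receptor of ciliary neurotrophic factor, was at 128 to 454 in young and 99 to 188 in old animals (-0.89 ± 0.22, adjusted p = 0.114). The shared subunit IL6ST differed by 0.17 ± 0.15 between old and young, LIFR by 0.21 ± 0.14 and OSMR by 0.40 ± 0.19 (adjusted p = 0.758, 0.65 and 0.462). Among the Janus kinases and the other STAT factors, 5 of 10 were tested and 0 passed. STAT5B, which carries growth hormone signals, was 0.61 ± 0.18 above middle-aged in old muscle (adjusted p = 0.105), and JAK1 0.29 ± 0.17 (adjusted p = 0.419).

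Of the inhibitors 11 of 17 were tested and 0 passed. CISH, a target of STAT5, was at 87 to 385 in young (median 236.0) and at 79 to 103 in old animals (median 89.0), a difference of -1.22 ± 0.30 (adjusted p = 0.114). SOCS2, another inhibitor of growth hormone signals, differed by -0.46 ± 0.15 between old and young (adjusted p = 0.228) and by -0.56 ± 0.15 between middle-aged and young (adjusted p = 0.198). Both were in the opposite direction to SOCS3, and the difference between these genes was not tested. The other 9 tested inhibitors differed by -0.16 (PIAS4) to 0.22 (PIAS1) between old and young.

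Of 23 further STAT3 targets 17 were tested and 0 passed. CDKN1A, which encodes the cell cycle inhibitor p21, had the smallest p of these in both comparisons with young muscle, at 199 to 486 in the young, 301 to 1253 in the middle-aged and 304 to 1914 in the old group (1.23 ± 0.38, adjusted p = 0.191, and 1.44 ± 0.38, adjusted p = 0.195). FOS was 2.43 ± 0.81 above young in middle-aged muscle (adjusted p = 0.278), with 1 animal at 6315. Of the targets 10 of 17 were above 0 between old and young (median 0.14), beside 4161 of all 8589 genes tested. Between middle-aged and young 11 of 17 were above 0 (median 0.08), beside 3718 of 8589.

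Of 29 other positive acute phase proteins, 8 were tested and 0 passed. Their median difference was 0.21 between old and young, 0.05 between middle-aged and young and 0.26 between old and middle-aged muscle. CFB, complement factor B, was at 84 to 191 in the young, 100 to 507 in the middle-aged and 123 to 692 in the old group (1.01 ± 0.39, adjusted p = 0.346, and 1.26 ± 0.39, adjusted p = 0.257). MT2A, a metal-binding metallothionein, was at 168 to 554 in young and 319 to 5000 in old animals (1.30 ± 0.48, adjusted p = 0.29). Of the negative acute phase proteins 2 of 9 were tested, albumin (ALB, -0.02 ± 0.11) and transthyretin (TTR, -0.12 ± 0.11), and 0 passed.

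The 1 gene of the lists that passed was S100A13, an S100 protein that takes part in the release of fibroblast growth factor 1. Its intensity ran from 374 to 479 in young, from 294 to 435 in middle-aged and from 275 to 415 in old muscle. On the log2 level all 6 old animals stood below all 6 middle-aged and all 6 young animals. It was 0.41 ± 0.09 lower (log2, SE) in old than in middle-aged muscle (limma, adjusted p = 0.0488), and its difference from young was -0.44 ± 0.09 (adjusted p = 0.0658). The call was close to the threshold and was kept in 7 of 29 repeats of the fit (adjusted p from 0.0198 to 0.631). With all detected probes of the gene averaged, the difference was -0.17. The other 5 tested S100 genes, among them S100A10 (0.41 ± 0.14 between old and middle-aged, adjusted p = 0.134), did not pass.

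Of the other phospholipases A2, 6 of 17 were tested and 0 passed. PLA2G15, the lysosomal phospholipase, differed by 0.35 ± 0.09 between old and young (adjusted p = 0.122), and PLA2G2D, a secreted relative of PLA2G2A, by 0.46 ± 0.15 between middle-aged and young (adjusted p = 0.261). Of 5 other C/EBP factors 4 were tested and 0 passed, with CEBPA at 0.19 ± 0.27 and DDIT3 at -0.37 ± 0.25 between old and young. Of 14 genes that glucocorticoids induce, 11 were tested and 0 passed. PDK4, a kinase that restrains pyruvate oxidation, was at 99 to 1190 in the young, 120 to 862 in the middle-aged and 218 to 3079 in the old group (2.10 ± 0.67 between old and young, adjusted p = 0.211).

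**Figure D5:**
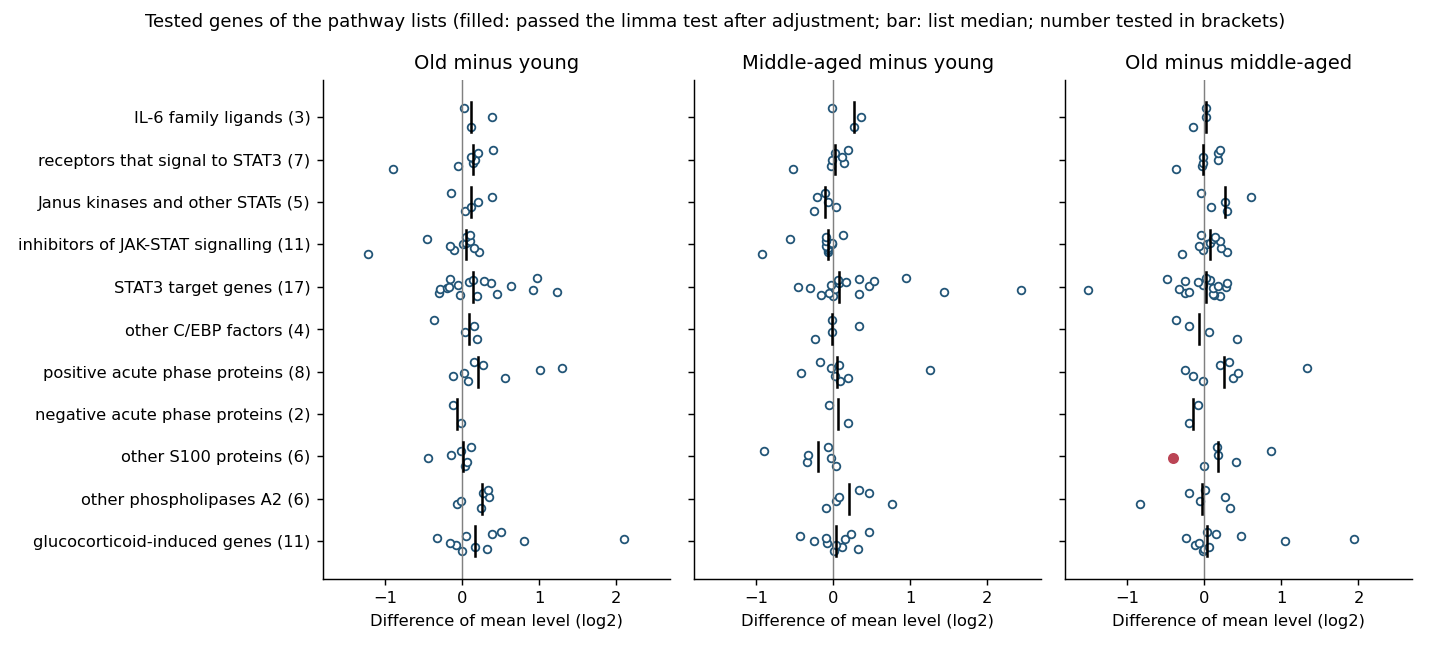
Difference of the mean level between 2 ages (log2, horizontal axis) of the tested genes in each pathway list, 1 point per gene, with a bar at the list's median. The filled point is S100A13, the 1 gene that passed the limma test (-0.41 between old and middle-aged muscle).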

How the data were processed

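The authors deposited, for 47323 probes on 18 arrays, the non-normalized intensity that GenomeStudio (version 2011.1 in the submitters' processing notes) read out, and a detection p-value for each. They also deposited a score, the Z score of the natural log of the intensity within an array, which was recomputed here (largest difference 0.0184). Background subtraction was not given in the sources used here. To bring Z scores to a log2 scale, each was scaled by 1.19, the SD of an array's log2 intensities averaged over arrays. Probes detected (p under 0.05) on at least 6 arrays with 1 symbol were kept, the brightest standing for its gene (8589 genes; 1611 had several). Symbols came from a table in which 30113 probes had 1 symbol, 8 several and 17202 none. One fit of the 3 ages was made with limma 3.58.1 in R 4.3.3, with Benjamini-Hochberg adjustment at 0.05, tested on simulated data first. Pairs were tested in Python 3.11.15 with numpy 2.4.6. The labels name no slide or scan batch and do not say more than that arrays are replicates, each taken as 1 animal. Precision is limited by the 18 arrays.

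The members and all gene lists were chosen with earlier results of these data known. Named were every member probe, list genes that passed or otherwise up to 2 with the smallest p, the 3 genes most like each tested member, and cell markers a result turned on. Several other list genes were named beyond this rule after their values were seen (IL6ST, LIFR, OSMR, JAK1, FOS, MT2A, CEBPA, DDIT3, ALB, TTR, PIAS1 and PIAS4). Alternatives were quantile normalization, neqc (offset 16), the deposited Z scores, centring on the array median, no filter, a stricter detection limit (0.01), averaging all probes of a gene, the replicate number as a block, array weights, 2 ages only, leaving out each animal, and 15 animals (old replicates 1 and 2 and young replicate 6 left out). The pathway counts, S100A13, FCGR3B and the globins were repeated under these as an addition made after the data were seen.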

Additional observations from a re-analysis of the deposited data

Results flagged for a closer look

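Of 42 sets of 6 animals (14 probes in 3 ages), 5 held an animal set apart from its age by a gap over Dixon's 95% limit for 6 values, which chance passes in about 1 of 20 sets. LCN2 in middle-aged replicate 5 stood at a log2 level of 1.83, with the next middle-aged animal at 0.30. S100A9 in the same animal stood at 0.42, with the next at -0.56, and this array also held the epithelial transcripts described above. HP in middle-aged replicate 4 stood at 1.46, with the next at 0.27. CEBPB in old replicate 1 stood at 5.99, with the next at 5.30. The dim SOCS3 probe ILMN_2156250 in middle-aged replicate 3 stood at -0.70, with the next lowest at -0.28, and was not detected there.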

How the results depend on the processing

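No difference of these 10 genes larger than its SE changed sign under any alternative run. Relative to a spread of 1 SD, CEBPB moved when arrays were centred on their median (-0.35 between middle-aged and young, 0.30 between old and middle-aged), a scaling that shifted the median of all genes by -0.14 and 0.13, HPR moved with neqc (2.56 between middle-aged and young), and so did the second STAT3 probe with neqc (0.84 and 0.47 against young). Genes called between old and young (8) were 0 with quantile normalization, without the filter, with the replicate block and with 2 ages only, 4 with neqc, 68 with array weights and 25 in 15 animals. Between middle-aged and young (2) they were 1 with quantile normalization, 10 with median centring and with 2 ages only, 0 with the replicate block and 29 with array weights. Between old and middle-aged (56, of which 20 were higher) they were 163 with median centring (144 higher, 19 lower), 36 without the filter, 29 with a detection p under 0.01, 6 with the replicate block and 4 in 15 animals. The methods' test on Z scores called 384, 405 and 493 genes, and after Benjamini-Hochberg 0, 7 and 51. Without 1 animal these counts ran from 0 to 54, 1 to 6 and 1 to 89. Pathway genes called between old and young (0) were 2 with array weights and 0 to 1 without 1 animal. Between old and middle-aged (1) they were 2 with median centring, 0 without the filter, with a detection p under 0.01, with the mean of a gene's probes, with the replicate block and in 15 animals, and 0 to 1 without 1 animal. Pairs passing within ages (4) were 2 with quantile normalization, with median centring and in 15 animals, 0 with neqc, and 0 to 4 without 1 animal. The 4 include the pairs with HP or LCN2 that are given above as a description. The cause of these changes was not tested.

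The replicate numbers do not pair the animals. Deviations of animals with the same number correlated at -0.259 to 0.22, above 0.1 in 2 of 18 pairs. With the replicate block the member differences could not change, because each replicate number occurs once in each age. Only their standard errors could. By limma S100A13 and FCGR3B (adjusted p = 0.0916 each) and HBA1, HBA2 and HBB (adjusted p = 0.0823 each) then did not pass.

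The arrays' lowest detected intensities were 87 to 121. Medians lay within or below this range for HP, LCN2 and S100A8 in all ages, for SOCS3 and S100A9 in young and middle-aged muscle and for HPR in young muscle, beside the undetected or rarely detected second probes.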
